A study of Mus musculus with 8 samples.

Results

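The 38 genes described here are mouse genes known to be imprinted, that is, expressed mainly from the copy inherited from one parent. They were chosen by symbol from the 55573 genes of the deposited table, as known imprinted genes and not by a threshold on measured values, and each symbol matched 1 Ensembl identifier. Earlier results of these data were known when the genes were chosen. Of the 38 genes, 13 are known to be expressed from the maternal allele and 24 from the paternal allele, and Gnas makes transcripts of both kinds. These classes come from prior knowledge of mouse genes, and imprinted expression can be limited to certain cell types, as for Ube3a in neurons. The allele read in the cells used here was not measured. The RNA came from 8 bulk libraries of mouse embryonic stem cells (ESCs), 2 per group, sequenced as polyadenylated RNA. In 2C::GFP+/SA, cells of the 2C::GFP+ genotype were given 2 µM SGC0946 and 2 µM AS8351. They also received 10 ng/ml IL6/sIL6R (interleukin 6 and its soluble receptor). In 2C::GFP+/SGC, cells of the same genotype were given 2 µM SGC0946 with 10 ng/ml LIF, a cytokine that keeps mouse ESCs undifferentiated. No LIF concentration is recorded for 2C::GFP+/SA. Untreated 2C::GFP+ cells and untreated wild-type ESCs (mESC) were the other groups. SGC0946 inhibits DOT1L, a histone methyltransferase, and AS8351 has been described to inhibit KDM5B, which demethylates histones. 2C::GFP is a green fluorescent reporter that marks ESCs in a 2-cell-like state.

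Several limits of this design bear on every comparison. Both treated groups were kept in KnockOut medium with 20% serum replacement, whereas the labels name 2 possible media for the untreated ESCs, so medium and group cannot be told apart in comparisons with mESC. The 2C::GFP+/SA and 2C::GFP+/SGC cultures differed in AS8351 and in the recorded cytokine at once, and these cannot be told apart either. Against untreated 2C::GFP+, 2C::GFP+/SA differed in SGC0946 and AS8351 at once. No concentration of LIF or IL6/sIL6R is recorded for untreated 2C::GFP+, so the cytokine cannot be told apart there either. By elimination, from names alone, 2 columns of the tables were taken as untreated 2C::GFP+. These columns are named KOSR, after a medium component (KnockOut serum replacement). No label states a sort for the reporter, or that the 2 libraries of a group came from separate cultures, so p-values measure only the spread between these libraries. Counts were not split by parental allele. A level below is therefore the sum of both alleles, and a change in level does not tell which allele was read.

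Imprinted genes sit in clusters that share a control region whose DNA is methylated on one parental copy only. The methylation is laid down in the egg or the sperm, is kept through the resetting of the early embryo by factors such as ZFP57 and TRIM28, and decides which copy of each neighbour is transcribed. Many clusters pair protein-coding genes of one allele with a long non-coding RNA of the other. A smaller class, called non-canonical, depends on maternal histone H3 lysine 27 methylation instead of DNA methylation. Many paternally expressed genes promote growth of the fetus or placenta and many maternally expressed genes restrain it, and cultured ESCs are known for unstable imprints.

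The libraries held between 96895327 and 145810034 counts for replicate 1 of each group and between 12299931 and 19544870 for replicate 2, so levels of weakly expressed genes in replicate 2 rest on few counts. Levels are given in TPM, a unit of relative abundance which corrects for gene length and library total and so permits comparison between genes. A gene was called changed where its adjusted p was under 0.05 (edgeR quasi-likelihood test, Benjamini-Hochberg adjustment over the 20608 genes tested), and changes are log2 fold changes with their standard error (SE). The ESC markers Pou5f1, Sox2 and Nanog were present in every library, and the summed level of 8 such markers lay between 8240 and 12300 TPM. Of these 8 markers, 0 were called higher and 5 lower in 2C::GFP+/SA than in 2C::GFP+, and 6 lower than in mESC. Sox2 had 334 and 461 TPM in 2C::GFP+/SA, 660 and 668 TPM in 2C::GFP+/SGC, 750 and 741 TPM in 2C::GFP+, and 729 and 905 TPM in mESC. The summed level of 8 genes of the 2-cell-like state was 9110 and 4370 TPM in 2C::GFP+/SA, 1900 and 1920 TPM in 2C::GFP+/SGC, 689 and 932 TPM in 2C::GFP+, and 4.16 and 11.2 in mESC. The 10 primitive endoderm markers summed to 119 and 249 TPM in 2C::GFP+/SA, 62.8 and 74.3 TPM in 2C::GFP+/SGC, 45.7 and 61.1 TPM in 2C::GFP+, and 91.0 and 145 in mESC, and 8 of the 10 were called higher and 1 lower in 2C::GFP+/SA than in 2C::GFP+. The 10 fibroblast markers summed to 28.2 and 28.3 TPM in 2C::GFP+/SA, 18.9 and 19.9 TPM in 2C::GFP+/SGC, 11.7 and 13.5 TPM in 2C::GFP+, and 6.06 and 9.19 in mESC, most of it Thy1 in 2C::GFP+/SA, and Col3a1, Lum and Postn were at or near 0 throughout. The 10 trophoblast markers summed to 17.6 and 29.4 TPM in 2C::GFP+/SA, 38.5 and 53.9 TPM in 2C::GFP+/SGC, 22.7 and 32.9 TPM in 2C::GFP+, and 60.9 and 69.4 in mESC, with Tpbpa and Prl3d1 at 0 in every library. Most of the mESC sum was Tfap2c (42.2 and 41.2 TPM). Of the 7 trophoblast markers tested, 1 was called higher and 0 lower in 2C::GFP+/SA than in 2C::GFP+, and 2 higher and 3 lower than in mESC.

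Against 2C::GFP+, 11 imprinted genes were higher and 4 lower in 2C::GFP+/SA, out of the 36 that passed the filter on low counts. Over all genes tested, 28.7% were called in this comparison, 14.9% higher and 13.8% lower. The genes called higher were H19, Igf2, Cdkn1c, Kcnq1ot1, Peg10, Sgce, Peg3, Magel2, Ndn, Plagl1 and Zrsr1, and those called lower were Phlda2, Rian, Mirg and Zdbf2. With another scaling (RLE factors) the split was 13 higher and 2 lower. Summed over the 38 genes, the level was 1518 and 2049 TPM in 2C::GFP+/SA, 1368 and 1456 TPM in 2C::GFP+/SGC, 1250 and 1386 TPM in 2C::GFP+, and 927 and 989 in mESC. Peg10 was the most abundant of the 38 in both 2C::GFP+/SA libraries, and Gab1 in the other 6. The heatmap of levels by locus shows the 38 genes in every library.

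**Figure D1:**
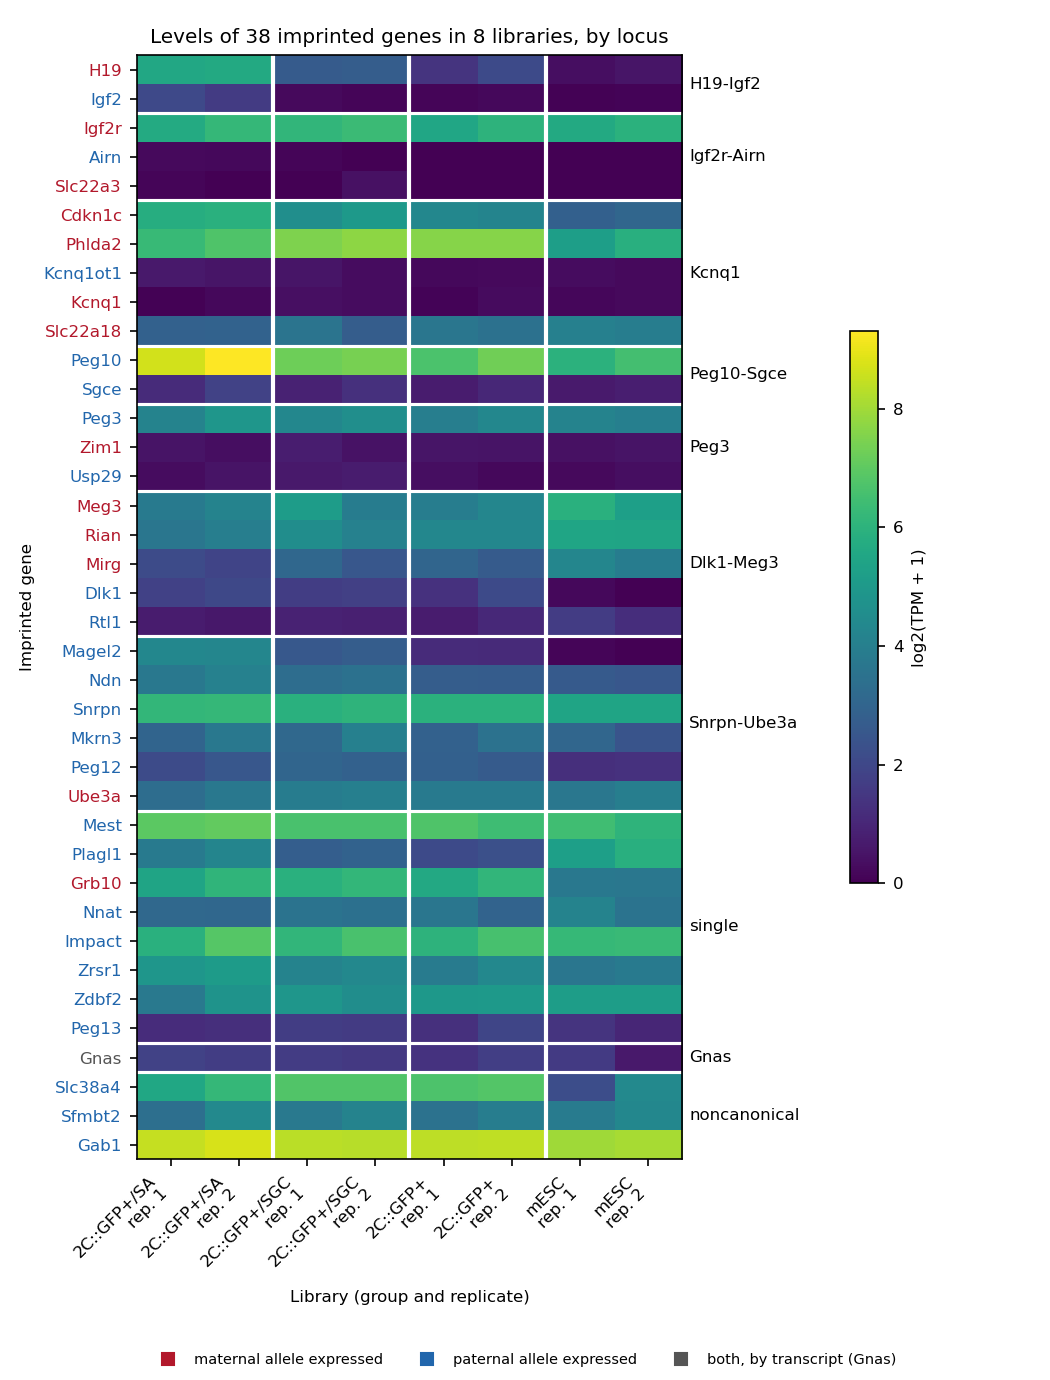
Level of each of the 38 imprinted genes (rows, grouped by locus, with the symbol coloured by expressed allele) in each of the 8 libraries (columns, grouped by 2C::GFP+/SA, 2C::GFP+/SGC, 2C::GFP+ and mESC), as log2(TPM + 1). H19, Igf2, Cdkn1c, Peg10 and Magel2 are brightest in the 2 columns of 2C::GFP+/SA, Plagl1 and the Meg3, Rian and Mirg rows in the 2 columns of mESC.

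H19 and Igf2 were both higher in 2C::GFP+/SA than in each of the other groups, although they are expressed from opposite alleles. H19 is a maternally expressed long non-coding RNA at chr7:142575529-142578143, and Igf2, a paternally expressed fetal growth factor gene, lies 72.6 kb from it at chr7:142650766-142666816 (both on the minus strand, GRCm38). H19 had 47.0 and 49.6 TPM in 2C::GFP+/SA, 5.42 and 5.73 TPM in 2C::GFP+/SGC, 1.61 and 3.30 TPM in 2C::GFP+, and 0.264 and 0.434 in mESC. The 4 groups did not overlap, and the level descended in that order. H19 rose 22.5-fold in 2C::GFP+/SA over 2C::GFP+ (log2 change 4.49 ± 0.32 SE, adjusted p = 2.23e-06) and 9.77-fold over 2C::GFP+/SGC (3.29 ± 0.30, adjusted p = 3.48e-05). It was also 7.24-fold higher in 2C::GFP+ than in mESC (log2 change 2.86 ± 0.38, adjusted p = 0.000113). Between 2C::GFP+/SGC and 2C::GFP+ the log2 change of 1.20 ± 0.31 was not called (adjusted p = 0.228), but without 2C::GFP+/SA replicate 2 it was (adjusted p = 0.0388). In bulk RNA, a larger share of cells that express a gene and more of its RNA per cell cannot be told apart.

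Igf2 had 3.20 and 2.08 TPM in 2C::GFP+/SA, 0.191 and 0.0865 TPM in 2C::GFP+/SGC, 0.106 and 0.146 TPM in 2C::GFP+, and 0.0486 and 0.0622 in mESC. Only the 2C::GFP+/SA libraries held more than 1 TPM, and the 2C::GFP+/SGC and 2C::GFP+ libraries overlapped. The counts behind these levels were 627 over the 2C::GFP+/SA group, 45 over 2C::GFP+/SGC, 27 over 2C::GFP+ and 14 over mESC. Igf2 rose 23.9-fold over 2C::GFP+ (log2 change 4.58 ± 0.61, adjusted p = 0.000126) and 18.9-fold over 2C::GFP+/SGC (4.24 ± 0.59, adjusted p = 0.000392, and a log2 change of 5.18 without 2C::GFP+/SGC replicate 1). Its difference between 2C::GFP+ and mESC was not called (log2 change 1.16 ± 0.70, adjusted p = 0.256). Igf2 shares 62.8% of its exon bases with the gene model Gm49394 on the same strand, which has 0 counts in every library. How reads on shared bases were counted is not given in the sources used here, so the level of Igf2 is uncertain. Of the primitive endoderm markers 8 of 10 tested, and of the fibroblast markers 3 of 6 tested, were also higher in 2C::GFP+/SA than in 2C::GFP+, and 5 of 8 ESC markers were lower. Over all genes tested, 14.9% were called higher and 13.8% lower there. The summed fibroblast markers and the summed genes of the 2-cell-like state both descended over the groups in the order of H19. The summed primitive endoderm markers were higher in mESC than in 2C::GFP+, and Lama1 made up most of the mESC sum. Lama1 had 68.6 and 111 TPM in mESC, against 20 and 21.9 TPM in 2C::GFP+. In 2C::GFP+ against mESC, 2 of the 10 primitive endoderm markers were called higher and 1 lower, beside 15.2% higher and 9.12% lower of all genes. Of the 10 changes 8 were positive, and over all genes 10780 of 20608. The part of these markers in the result was not tested.

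H19 RNA is the precursor of miR-675, whose hairpin lies inside the gene on the same strand. The 2 mature sequences are shown because they are cut from the imprinted transcript with the smallest adjusted p of the 36 in 2C::GFP+/SA against 2C::GFP+. Capitals mark the seed, bases 2 to 8, and the seeds of the 2 arms differ (RefSeq, GRCm38.p6, minus strand, chr7:142577112-142577133 and chr7:142577078-142577099). The mature miRNAs were not measured by these libraries.
miR-675-5p: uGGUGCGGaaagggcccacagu
miR-675-3p: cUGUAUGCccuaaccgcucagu

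In the Igf2r cluster on chromosome 17, no change was called. It encodes the receptor that takes up and degrades IGF2 and is maternally expressed. Its 8 values lay between 44.1 and 81.2 TPM, with both 2C::GFP+/SGC libraries above both of 2C::GFP+ and of mESC and the other pairs of groups overlapping. The largest log2 change was 0.38 ± 0.15 between 2C::GFP+/SGC and 2C::GFP+ (adjusted p = 0.427). Airn, the paternal antisense RNA that silences Igf2r on its own chromosome, had 21 counts over the 2C::GFP+/SA group, 15 over 2C::GFP+/SGC, 2 over 2C::GFP+ and 0 over mESC. Slc22a3, a maternally expressed organic cation transporter gene, had 12, 10, 0 and 0 counts over the same groups. Neither passed the filter on low counts, so neither was tested, and a count of 0 in mESC allows up to a CPM of 0.0181 (3 counts over the group total, counting error only).

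In the Kcnq1 cluster of chromosome 7, Cdkn1c and Phlda2 moved in opposite directions in 2C::GFP+/SA against 2C::GFP+ and against 2C::GFP+/SGC. Against mESC, both were called higher in 2C::GFP+ and in 2C::GFP+/SA. Cdkn1c, which encodes the cell cycle inhibitor p57, and Phlda2, which restrains growth of the placenta, are both maternally expressed. Cdkn1c had 54.9 and 59.4 TPM in 2C::GFP+/SA, 23.3 and 31.1 TPM in 2C::GFP+/SGC, 18.6 and 17.4 TPM in 2C::GFP+, and 6.14 and 7.41 in mESC. Its groups did not overlap and descended in that order. It rose over 2C::GFP+ by a log2 change of 1.71 ± 0.21 (3.28-fold, adjusted p = 7.98e-05) and over 2C::GFP+/SGC by 1.25 ± 0.21 (adjusted p = 0.0015), and 2C::GFP+ was above mESC by 1.43 ± 0.22 (adjusted p = 0.000356). The predicted antisense gene Gm44732 covers 30.7% of the exon bases of Cdkn1c and has 0 counts in every library. Without a stated strand setting, reads of both strands cannot be told apart.

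Phlda2 had 76.2 and 105 TPM in 2C::GFP+/SA, 181 and 211 TPM in 2C::GFP+/SGC, 195 and 194 TPM in 2C::GFP+, and 35.8 and 57.1 in mESC. The 2C::GFP+/SA libraries lay below all 4 libraries of 2C::GFP+/SGC and 2C::GFP+ and above both of mESC. Phlda2 fell by 1.08 on the log2 scale against 2C::GFP+ (SE 0.18, adjusted p = 0.000687) and by 0.97 against 2C::GFP+/SGC (SE 0.18, adjusted p = 0.00282). It was 4.28-fold higher in 2C::GFP+ than in mESC (log2 change 2.10 ± 0.19, adjusted p = 3.32e-06). Its RefSeq promoter window, 250 bases before to 50 bases after the start, is given with the letters TATAAA in capitals, which begin at base 221 of the window (GRCm38.p6, chr7:143502475-143502774, minus strand, 26 CpG sites). TATAAA on the gene's strand occurs in 8.32% of the 32851 mouse windows and in 4 of the 48 windows of these genes.
Phlda2: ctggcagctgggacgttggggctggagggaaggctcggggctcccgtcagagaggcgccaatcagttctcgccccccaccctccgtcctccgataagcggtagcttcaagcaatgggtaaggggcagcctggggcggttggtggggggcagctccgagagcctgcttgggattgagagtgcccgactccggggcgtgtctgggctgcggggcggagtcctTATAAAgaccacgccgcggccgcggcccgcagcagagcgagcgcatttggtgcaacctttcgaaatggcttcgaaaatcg

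The other 3 genes of the cluster were weaker. Kcnq1ot1, the paternal antisense RNA that silences its neighbours in cis, had 0.567 and 0.444 TPM in 2C::GFP+/SA, 0.452 and 0.250 TPM in 2C::GFP+/SGC, 0.159 and 0.183 TPM in 2C::GFP+, and 0.227 and 0.183 in mESC. Both 2C::GFP+/SA values were above those of 2C::GFP+ and mESC, and one 2C::GFP+/SGC library lay within the range of 2C::GFP+/SA. Its log2 change was 1.67 ± 0.33 over 2C::GFP+ (adjusted p = 0.00236) and 1.37 ± 0.33 over mESC (adjusted p = 0.0039). With limma neither was called, on log2(TPM + 1) (adjusted p = 0.123 and 0.132) or on log2(TPM + 0.1) (0.161 and 0.184). Kcnq1, a potassium channel gene, had at most 0.31 TPM in any library and no called change. Slc22a18, a maternally expressed transporter gene 2.2 kb from Phlda2, had 6.44 and 6.53 TPM in 2C::GFP+/SA, 10.9 and 5.68 TPM in 2C::GFP+/SGC, 11.7 and 10.0 TPM in 2C::GFP+, and 15.4 and 14.2 in mESC. It was lower in 2C::GFP+/SA than in mESC (log2 change -1.12 ± 0.35, adjusted p = 0.0186), a call lost without 2C::GFP+/SA replicate 2 (adjusted p = 0.0601) or without mESC replicate 1 (adjusted p = 0.104).

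**Figure D2:**
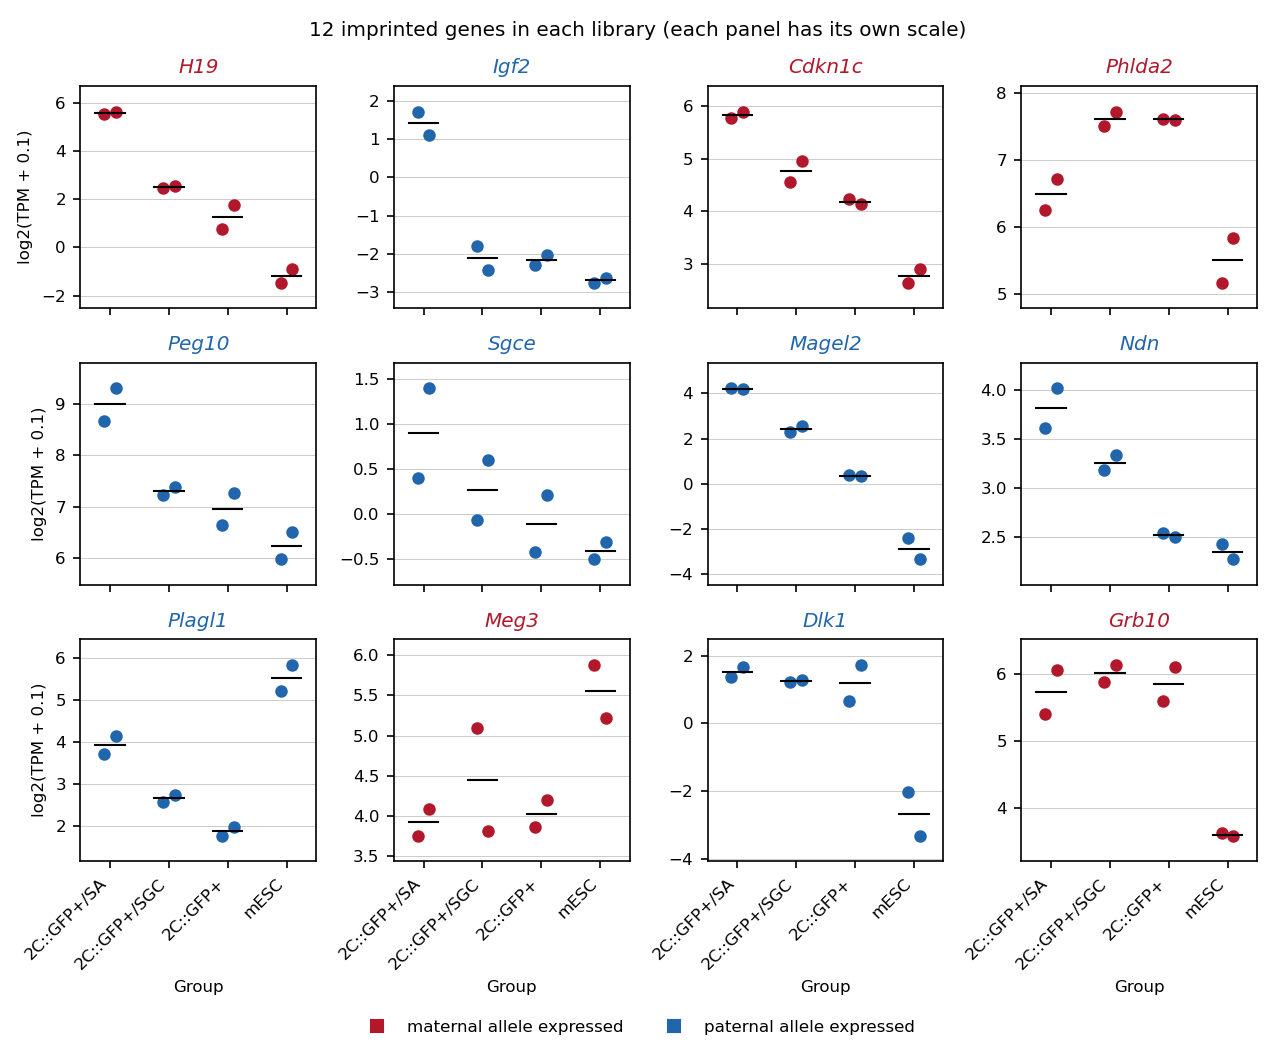
Level of 12 imprinted genes in each library as log2(TPM + 0.1), 1 panel per gene with its own scale, groups from left to right 2C::GFP+/SA, 2C::GFP+/SGC, 2C::GFP+ and mESC. Points are the 2 libraries of a group and the bar is the mean of the plotted values, with maternally expressed genes in red and paternally expressed genes in blue. H19, Cdkn1c, Magel2 and Ndn descend from left to right without overlap between groups, whereas Phlda2 and Grb10 are lowest in mESC and Plagl1 is lowest in 2C::GFP+.

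Peg10 was the imprinted gene with the highest level in 2C::GFP+/SA, at 520 ± 159 TPM (SD, n = 2). It is a paternally expressed gene derived from a retrotransposon and is needed for the placenta. Peg10 had 407 and 632 TPM in 2C::GFP+/SA, 150 and 167 TPM in 2C::GFP+/SGC, 99.9 and 154 TPM in 2C::GFP+, and 62.8 and 90.3 in mESC. Both 2C::GFP+/SA libraries were far above all others, and 2C::GFP+/SGC overlapped with 2C::GFP+. The log2 change was 2.08 ± 0.19 over 2C::GFP+ (4.22-fold, adjusted p = 1.39e-05) and 1.85 ± 0.19 over 2C::GFP+/SGC (adjusted p = 9.19e-05). Peg10 was also higher in 2C::GFP+ than in mESC (0.72 ± 0.18, adjusted p = 0.0117), a call lost without 2C::GFP+ replicate 2 (adjusted p = 0.134) or without mESC replicate 1 (adjusted p = 0.143). Sgce starts 0.1 kb from Peg10 on the other strand (chromosome 6) and encodes epsilon-sarcoglycan. Sgce had 1.22 and 2.53 TPM in 2C::GFP+/SA, 0.856 and 1.42 TPM in 2C::GFP+/SGC, 0.645 and 1.06 TPM in 2C::GFP+, and 0.607 and 0.704 in mESC. Its groups next to each other in that order overlapped. Both 2C::GFP+/SA values were above those of 2C::GFP+ and mESC, and both 2C::GFP+/SGC values were above those of mESC. The rise over 2C::GFP+ (log2 change 1.17 ± 0.40, adjusted p = 0.0441) was lost without 2C::GFP+/SA replicate 2 (0.248), 2C::GFP+ replicate 1 (0.258) or 2C::GFP+ replicate 2 (0.0617). The rise over mESC (1.5 ± 0.41, adjusted p = 0.00808) was lost without 2C::GFP+/SA replicate 2 (0.0620) or mESC replicate 1 (0.0556).

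In the Peg3 cluster at the proximal end of chromosome 7, levels differed little. Peg3, a paternally expressed zinc finger gene, had 17.1 and 28.4 TPM in 2C::GFP+/SA, 19 and 23.4 TPM in 2C::GFP+/SGC, 14.8 and 18.6 TPM in 2C::GFP+, and 16.8 and 15.1 in mESC. The 2C::GFP+/SA and 2C::GFP+ libraries overlapped. Its calls as higher in 2C::GFP+/SA than in 2C::GFP+ (log2 change 0.48 ± 0.17, adjusted p = 0.0445) and in mESC (0.52 ± 0.17, adjusted p = 0.0195) rested on single libraries. The first was lost without 2C::GFP+/SA replicate 2 (adjusted p = 0.240), 2C::GFP+ replicate 1 (0.214) or 2C::GFP+ replicate 2 (0.0516), and the second without 2C::GFP+/SA replicate 2 (0.155) or mESC replicate 2 (0.142). Usp29, a ubiquitin peptidase gene that starts 0.1 kb from Peg3 on the other strand, had 0.243 and 0.399 TPM in 2C::GFP+/SA, 0.538 and 0.616 TPM in 2C::GFP+/SGC, 0.273 and 0.15 TPM in 2C::GFP+, and 0.186 and 0.256 in mESC. Zim1, a maternally expressed zinc finger gene, had 0.411 and 0.274 TPM in 2C::GFP+/SA, 0.697 and 0.367 TPM in 2C::GFP+/SGC, 0.435 and 0.412 TPM in 2C::GFP+, and 0.341 and 0.396 in mESC. Neither was called in any comparison. Usp29 shares 14.3% of its exon bases with Zim3 on the other strand (0 to 11 counts per group), so its level is uncertain.

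The Dlk1-Meg3 cluster on chromosome 12 differed mainly between mESC and the other groups. The maternally expressed non-coding RNAs Meg3, Rian (a host of small nucleolar RNAs) and Mirg (a host of miRNAs) were highest in mESC. The paternally expressed Dlk1, which encodes a Notch-like ligand that restrains differentiation, was lowest there, while the paternally expressed Rtl1 was highest there. Rian had 11.6 and 14.9 TPM in 2C::GFP+/SA, 22.7 and 16.1 TPM in 2C::GFP+/SGC, 18.8 and 18.9 TPM in 2C::GFP+, and 43.4 and 42.2 in mESC. Mirg had 3.39 and 2.78 TPM in 2C::GFP+/SA, 7.71 and 4.75 TPM in 2C::GFP+/SGC, 7.22 and 5.45 TPM in 2C::GFP+, and 18.3 and 14.1 in mESC. Both genes were above all other libraries in mESC and below all others in 2C::GFP+/SA. Rian fell by 1.19 on the log2 scale in 2C::GFP+ against mESC (SE 0.16, adjusted p = 0.000125), and by 1.65 in 2C::GFP+/SA against mESC (SE 0.16, adjusted p = 3.13e-06). Mirg fell by 2.29 in 2C::GFP+/SA against mESC (SE 0.32, adjusted p = 0.000116). Its fall of 1.35 in 2C::GFP+ against mESC (SE 0.30, adjusted p = 0.00697) was lost without 2C::GFP+ replicate 2 (0.0598) or mESC replicate 1 (0.0653).

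Against 2C::GFP+, the falls of Rian and Mirg in 2C::GFP+/SA were smaller and depended on single libraries. For Rian the log2 change was -0.47 ± 0.16 (adjusted p = 0.0418), not called without 2C::GFP+/SA replicate 1 (0.128), 2C::GFP+/SA replicate 2 (0.0818), 2C::GFP+ replicate 1 (0.209), 2C::GFP+ replicate 2 (0.0668) or mESC replicate 1 (0.0627). For Mirg it was -0.95 ± 0.31 (adjusted p = 0.0378), not called without 2C::GFP+/SA replicate 2 (0.141) or 2C::GFP+ replicate 1 (0.288). Meg3, the RNA next to the control region of the cluster, had 13.4 and 16.9 TPM in 2C::GFP+/SA, 34.1 and 13.9 TPM in 2C::GFP+/SGC, 14.4 and 18.3 TPM in 2C::GFP+, and 58.8 and 37.1 in mESC. The mESC libraries were above all others, and 2C::GFP+/SGC replicate 1 stood apart from the other 5 below them. Its log2 change of -1.64 ± 0.50 in 2C::GFP+/SA against mESC (adjusted p = 0.0496) was not called without any 1 of the 6 libraries of 2C::GFP+/SA (0.184 and 0.235), 2C::GFP+ (0.0720 and 0.132) and mESC (0.158 and 0.102). In 2C::GFP+ against mESC, the change of -1.58 ± 0.50 was not called (adjusted p = 0.0837), but was without 2C::GFP+/SGC replicate 1 (0.00196) or replicate 2 (0.000156).

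Dlk1 had 2.49 and 3.09 TPM in 2C::GFP+/SA, 2.23 and 2.36 TPM in 2C::GFP+/SGC, 1.49 and 3.24 TPM in 2C::GFP+, and 0.143 and 0 in mESC. The 2C::GFP+ libraries overlapped with each treated group, 2C::GFP+/SA was just above 2C::GFP+/SGC, and both mESC libraries were below all of these, with 35 counts in all. Dlk1 was 20.1-fold higher in 2C::GFP+ than in mESC (log2 change 4.33 ± 0.63, adjusted p = 0.000281) and 25.6-fold higher in 2C::GFP+/SA than in mESC (4.68 ± 0.63, adjusted p = 6.05e-05). Without mESC replicate 1 the only mESC library left has no Dlk1 count, and the fitted log2 changes of 10.83 and 11.21 then depend on the prior count. Rtl1, a paternally expressed gene derived from a retrotransposon, had 0.651 and 0.523 TPM in 2C::GFP+/SA, 0.854 and 0.779 TPM in 2C::GFP+/SGC, 0.628 and 1.11 TPM in 2C::GFP+, and 2.13 and 1.34 in mESC. Unlike Dlk1, it was highest in mESC. It was called lower in 2C::GFP+/SA than in mESC (log2 change -1.46 ± 0.47, adjusted p = 0.0201), but not without 2C::GFP+/SA replicate 2 (0.0938) or mESC replicate 1 (0.205). Rtl1 lies opposite a maternal transcript that carries 6 miRNA hairpins of the RefSeq table within the span of Rtl1, and without a stated strand setting reads of the 2 strands cannot be told apart.

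The promoters of Dlk1 and Meg3 are shown as a pair of opposite alleles, of which Meg3 was highest and Dlk1 lowest in mESC (RefSeq, GRCm38.p6, plus strand, chr12:109452573-109452872 for Dlk1 and the first Meg3 window, chr12:109540746-109541045). In the Meg3 window capitals mark GCGGCA at base 61, which is TGCCGC on the other strand, and TATAAA at base 226. TGCCGC, the core of the motif bound by ZFP57 when methylated, was searched on both strands, and neither motif is in the Dlk1 window. It occurs in 11.6% of all 32851 windows and in 10 of the 48 windows of these genes (20.8%), which belong to 9 genes. The 2 motifs do not overlap in the Meg3 window.
Dlk1: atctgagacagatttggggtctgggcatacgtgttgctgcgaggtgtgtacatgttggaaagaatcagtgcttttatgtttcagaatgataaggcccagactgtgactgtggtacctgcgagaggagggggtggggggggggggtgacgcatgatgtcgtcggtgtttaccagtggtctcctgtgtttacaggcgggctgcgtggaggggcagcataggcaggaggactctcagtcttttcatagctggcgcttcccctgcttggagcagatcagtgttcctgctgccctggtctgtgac
Meg3: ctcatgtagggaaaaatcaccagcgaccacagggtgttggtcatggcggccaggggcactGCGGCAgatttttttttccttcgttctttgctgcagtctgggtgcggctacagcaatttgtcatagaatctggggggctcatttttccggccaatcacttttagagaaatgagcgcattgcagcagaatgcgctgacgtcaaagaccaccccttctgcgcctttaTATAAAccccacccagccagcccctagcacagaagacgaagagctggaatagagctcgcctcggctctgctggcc

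Some miRNA hairpins of the maternal strand of this cluster lie within genes measured here. In the RefSeq miRNA table, the hairpins within the spans of the genes on their own strand number 1 for Meg3, 3 for Rian and 14 for Mirg. Mature forms are given with their seeds in capitals, 1 from Rian and 2 from the strand opposite Rtl1, and no 2 of them share a seed (RefSeq, GRCm38.p6, plus strand). They lie at chr12:109618305-109618326, chr12:109592888-109592909 and chr12:109595331-109595352 and were not measured by these libraries. The 2 opposite Rtl1 lie outside the spans of Meg3, Rian and Mirg.
miR-370-3p: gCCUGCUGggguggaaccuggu
miR-127-3p: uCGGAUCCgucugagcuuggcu
miR-136-5p: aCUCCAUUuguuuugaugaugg

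In the Snrpn-Ube3a cluster on chromosome 7, which is homologous to the human Prader-Willi and Angelman region, Magel2 changed most and its neighbour Ndn moved the same way. Both are paternally expressed and encode MAGE family proteins, of which MAGEL2 regulates a ubiquitin ligase and NDN (necdin) restrains proliferation. Magel2 had 18.7 and 18.1 TPM in 2C::GFP+/SA, 4.87 and 5.77 TPM in 2C::GFP+/SGC, 1.22 and 1.17 TPM in 2C::GFP+, and 0.0900 and 0 in mESC. Ndn had 12.1 and 16.1 TPM in 2C::GFP+/SA, 8.94 and 9.98 TPM in 2C::GFP+/SGC, 5.70 and 5.52 TPM in 2C::GFP+, and 5.25 and 4.72 in mESC. For both genes the 4 groups did not overlap and descended in that order. Magel2 rose 15.9-fold over 2C::GFP+ (log2 change 3.99 ± 0.35, adjusted p = 7.45e-06) and 3.95-fold over 2C::GFP+/SGC (1.98 ± 0.32, adjusted p = 0.00106). It was 15.5-fold higher in 2C::GFP+ than in mESC (3.95 ± 0.45, adjusted p = 2.96e-05), and mESC held 18 counts in all. Without mESC replicate 1 the remaining mESC library has no Magel2 count, and the fitted log2 change of 9.63 then depends on the prior count. Ndn rose over 2C::GFP+ by a log2 change of 1.36 ± 0.24 (adjusted p = 0.00104), while its change over 2C::GFP+/SGC of 0.73 ± 0.24 was not called (adjusted p = 0.0515), but was without mESC replicate 1 (0.0433).

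Between 2C::GFP+/SGC and 2C::GFP+, Magel2 was not called, with a log2 change of 2.01 ± 0.34 (edgeR, adjusted p = 0.116). The change was called without 2C::GFP+/SA replicate 1 (adjusted p = 0.0254), without 2C::GFP+/SA replicate 2 (0.000199), without mESC replicate 2 (0.00595), and with DESeq2 (8.96e-07). Magel2 and Ndn lie 26.7 kb apart, and their RefSeq promoter windows are given because the 2 genes shared one order of groups (GRCm38.p6, plus strand, chr7:62376729-62377028 with 10 CpG sites and chr7:62348027-62348326 with 11). Capitals mark TATAAA, which begins at base 86 of the Magel2 window. Neither TGCCGC on either strand nor TATAAA is in the Ndn window.
Magel2: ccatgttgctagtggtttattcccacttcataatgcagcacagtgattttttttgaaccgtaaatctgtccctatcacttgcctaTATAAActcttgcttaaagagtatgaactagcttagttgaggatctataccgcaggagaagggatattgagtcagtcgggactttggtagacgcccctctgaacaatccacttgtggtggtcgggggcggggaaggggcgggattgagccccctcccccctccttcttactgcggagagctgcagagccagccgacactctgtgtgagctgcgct
Ndn: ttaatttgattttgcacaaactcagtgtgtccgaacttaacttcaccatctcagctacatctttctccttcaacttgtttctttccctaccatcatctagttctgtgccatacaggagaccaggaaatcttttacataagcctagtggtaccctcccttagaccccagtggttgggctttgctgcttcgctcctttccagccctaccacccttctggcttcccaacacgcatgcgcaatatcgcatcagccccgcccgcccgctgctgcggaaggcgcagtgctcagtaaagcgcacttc

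The other 4 genes of that cluster differed less. Snrpn, which encodes a splicing protein and starts at the control region of the cluster, had 70.8 and 72.8 TPM in 2C::GFP+/SA, 59.1 and 66.1 TPM in 2C::GFP+/SGC, 59.8 and 61.0 TPM in 2C::GFP+, and 42.2 and 41.8 in mESC. Both mESC libraries were below all others. Snrpn was higher in 2C::GFP+/SA than in mESC (log2 change 0.83 ± 0.16, adjusted p = 0.000781). Its call in 2C::GFP+ against mESC (0.52 ± 0.16, adjusted p = 0.0282) was lost without either 2C::GFP+ library (0.129 and 0.0863) or either mESC library (0.0799 and 0.180). Peg12, a gene of the FRAT family that binds the kinase GSK3, had 3.34 and 4.83 TPM in 2C::GFP+/SA, 7.20 and 6.37 TPM in 2C::GFP+/SGC, 6.24 and 5.44 TPM in 2C::GFP+, and 1.36 and 1.48 in mESC. It was lowest in mESC, and higher in 2C::GFP+ than in mESC by a log2 change of 2.05 ± 0.36 (adjusted p = 0.000887). Mkrn3, a ubiquitin ligase gene, had 7 and 12.2 TPM in 2C::GFP+/SA, 7.89 and 15.5 TPM in 2C::GFP+/SGC, 6.33 and 10.5 TPM in 2C::GFP+, and 7.42 and 4.33 in mESC. Ube3a, the ubiquitin ligase gene whose imprinted expression is limited to neurons, had 9.12 and 12.2 TPM in 2C::GFP+/SA, 14.1 and 15.1 TPM in 2C::GFP+/SGC, 12.9 and 13.4 TPM in 2C::GFP+, and 11.8 and 14.6 in mESC. Mkrn3 and Ube3a were called in no comparison. Snrpn shares 27.3% of its exon bases with the model Gm38393, which held 1820 counts in 2C::GFP+/SA, 2222 in 2C::GFP+/SGC, 1118 in 2C::GFP+ and 1898 in mESC, so its level is uncertain.

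Plagl1 fell in 2C::GFP+ against mESC and rose again in 2C::GFP+/SA. It is a paternally expressed zinc finger transcription factor (also called ZAC1) at chr10:13060504-13131694 that regulates other imprinted genes. Plagl1 had 13 and 17.6 TPM in 2C::GFP+/SA, 5.85 and 6.58 TPM in 2C::GFP+/SGC, 3.29 and 3.83 TPM in 2C::GFP+, and 37.2 and 57.0 in mESC. No 2 groups overlapped: mESC was highest, followed by 2C::GFP+/SA, 2C::GFP+/SGC and 2C::GFP+. Plagl1 fell by 3.72 on the log2 scale in 2C::GFP+ against mESC (SE 0.19, adjusted p = 2.69e-08), which was the smallest adjusted p of the 36 tested genes in that comparison. It rose in 2C::GFP+/SA over 2C::GFP+ (log2 change 2.15 ± 0.18, adjusted p = 6.42e-06) and over 2C::GFP+/SGC (1.45 ± 0.18, adjusted p = 0.000169), and stayed below mESC (-1.58 ± 0.17, adjusted p = 7.84e-06). Its change in 2C::GFP+/SGC over 2C::GFP+, 0.70 ± 0.18, was not called (adjusted p = 0.236), but was without 2C::GFP+/SA replicate 2 (0.0246). The promoter is given with GCGGCA, the reverse complement of TGCCGC, in capitals at base 161 (RefSeq, GRCm38.p6, chr10:13090582-13090881, plus strand, 26 CpG sites).
Plagl1: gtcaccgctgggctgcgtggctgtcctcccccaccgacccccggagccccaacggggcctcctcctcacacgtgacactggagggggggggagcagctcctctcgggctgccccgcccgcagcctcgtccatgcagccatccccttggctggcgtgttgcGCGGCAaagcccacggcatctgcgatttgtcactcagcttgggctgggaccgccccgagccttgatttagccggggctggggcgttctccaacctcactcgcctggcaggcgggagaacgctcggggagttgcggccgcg

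Among the other genes at loci of their own, Grb10 and Zrsr1 differed most clearly. Grb10 encodes an adaptor that restrains insulin signalling and had 42.3 and 66.4 TPM in 2C::GFP+/SA, 58.8 and 70.3 TPM in 2C::GFP+/SGC, 48.5 and 68.6 TPM in 2C::GFP+, and 12.2 and 11.9 in mESC. The 3 groups of 2C::GFP+ cells overlapped and mESC stood below them. Grb10 was higher in 2C::GFP+ than in mESC by a log2 change of 2.26 ± 0.16 (adjusted p = 6.02e-07), and in 2C::GFP+/SA by 2.19 ± 0.16 (adjusted p = 2.42e-07). Zrsr1, a splicing factor gene, had 28.7 and 33.1 TPM in 2C::GFP+/SA, 16.9 and 19.3 TPM in 2C::GFP+/SGC, 13.6 and 19.3 TPM in 2C::GFP+, and 11.5 and 13 in mESC. Both 2C::GFP+/SA libraries were above all others. The log2 change was 0.98 ± 0.18 over 2C::GFP+ (adjusted p = 0.00115), 1.38 ± 0.18 over mESC (adjusted p = 3.27e-05) and 0.94 ± 0.18 over 2C::GFP+/SGC (adjusted p = 0.00317), the last lost without 2C::GFP+/SGC replicate 1 (0.0523).

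Zdbf2, a paternally expressed gene that promotes growth after birth, had 12.6 and 26.4 TPM in 2C::GFP+/SA, 28.9 and 22.5 TPM in 2C::GFP+/SGC, 30.0 and 31.3 TPM in 2C::GFP+, and 35.4 and 35.6 in mESC. The 2C::GFP+/SA libraries were far apart, and both were below 2C::GFP+ and mESC. The fall against 2C::GFP+ (log2 change -0.66 ± 0.22, adjusted p = 0.0450) was lost without 2C::GFP+/SA replicate 1 (0.204), 2C::GFP+ replicate 1 (0.181), 2C::GFP+ replicate 2 (0.104) or mESC replicate 1 (0.0773). The fall against mESC (-0.88 ± 0.22, adjusted p = 0.00795) was lost without mESC replicate 1 (0.0549). Mest, which encodes a hydrolase-like protein, had 124 and 132 TPM in 2C::GFP+/SA, 98.3 and 98.1 TPM in 2C::GFP+/SGC, 107 and 83.6 TPM in 2C::GFP+, and 85.9 and 65.8 in mESC. Both 2C::GFP+/SA libraries were above all others, and the change was called against mESC (log2 change 0.80 ± 0.19, adjusted p = 0.00516). Against 2C::GFP+ it was 0.47 ± 0.19 and not called (adjusted p = 0.0850), but was without 2C::GFP+/SA replicate 2 (0.0392), 2C::GFP+ replicate 1 (0.0336), mESC replicate 1 (0.0313) or mESC replicate 2 (0.0374). Against 2C::GFP+/SGC it was 0.55 ± 0.19 and not called (adjusted p = 0.0726), but was without 2C::GFP+/SA replicate 2 (0.0307), 2C::GFP+ replicate 1 (0.0389), 2C::GFP+ replicate 2 (0.0296), mESC replicate 1 (0.0321) or mESC replicate 2 (0.0271). Mest shares 23.1% of its exon bases with Copg2 on the other strand, which held 6172 to 12277 counts per group, so its level is uncertain.

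Nnat, Impact, Gnas and Peg13 were called in no comparison. Nnat (a membrane proteolipid) lay between 6.83 and 16.9 TPM, Impact (an inhibitor of the kinase GCN2) between 58.3 and 114, and Peg13 (a non-coding RNA) between 0.979 and 2.82. Gnas, whose transcripts encode a stimulatory G protein subunit and related proteins, lay between 0.562 and 2.57 TPM, and shares 13.1% of its exon bases with Gm20721 on the other strand (1 to 6 counts per group), so its level is uncertain. Gnas was called higher than mESC without mESC replicate 1, in 2C::GFP+ (adjusted p = 0.0160, against 0.555 with all libraries) and in 2C::GFP+/SA (0.00242, against 0.180). Nnat was called lower in 2C::GFP+/SA than in mESC without mESC replicate 2 (adjusted p = 0.0321, against 0.0853).

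The 3 genes of non-canonical imprinting, all paternally expressed, did not share one pattern. Slc38a4, an amino acid transporter gene, had 45.4 and 71.8 TPM in 2C::GFP+/SA, 109 and 109 TPM in 2C::GFP+/SGC, 103 and 111 TPM in 2C::GFP+, and 3.60 and 19.9 in mESC. Its mESC libraries were far apart, yet both were below every library of the other groups, and both 2C::GFP+/SA libraries were below 2C::GFP+/SGC and 2C::GFP+. Slc38a4 was called higher in 2C::GFP+ than in mESC (log2 change 3.30 ± 0.81, adjusted p = 0.0494), with a change of 2.46 without mESC replicate 1 and 4.82 without mESC replicate 2 (adjusted p = 1.68e-05 and 7.29e-14). The call was lost without 2C::GFP+/SA replicate 1 (0.0877) or replicate 2 (0.119), 2C::GFP+/SGC replicate 1 (0.0573) or replicate 2 (0.133), and 2C::GFP+ replicate 1 (0.11) or replicate 2 (0.192).

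For Slc38a4 in 2C::GFP+/SA, no comparison was called by edgeR with all 8 libraries. Its log2 change was -0.84 ± 0.74 against 2C::GFP+ (adjusted p = 0.478), and -0.81 and -0.85 without mESC replicate 1 and without mESC replicate 2, both called (adjusted p = 0.00139 and 9.35e-05). Against 2C::GFP+/SGC it was -0.77 ± 0.74 (adjusted p = 0.579), and called without mESC replicate 1 (0.00448) or mESC replicate 2 (0.000557). With only the 4 libraries compared, both of these changes were called (adjusted p = 0.00499 and 0.0171). Against mESC it was 2.46 ± 0.79 (adjusted p = 0.0645), but called with all libraries by DESeq2 (0.00595) and by limma on log2(TPM + 1) (0.0149) and log2(TPM + 0.1) (0.0381), and by edgeR without mESC replicate 1 (7.42e-05) or mESC replicate 2 (7.25e-13).

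Gab1, a docking protein gene of growth factor signalling, had 355 and 423 TPM in 2C::GFP+/SA, 322 and 315 TPM in 2C::GFP+/SGC, 334 and 339 TPM in 2C::GFP+, and 254 and 269 in mESC. Its groups did not overlap, with 2C::GFP+/SA highest and mESC lowest, and its changes were small. It was called higher in 2C::GFP+/SA than in mESC (log2 change 0.62 ± 0.12, adjusted p = 0.000931). The call over 2C::GFP+/SGC (0.45 ± 0.12, adjusted p = 0.0229) was lost without 2C::GFP+/SGC replicate 1 (0.0838) or replicate 2 (0.209). The call in 2C::GFP+ over mESC (0.36 ± 0.12, adjusted p = 0.0423) was lost without either 2C::GFP+/SGC library (0.0581 and 0.114), either 2C::GFP+ library (0.165 and 0.112) or either mESC library (0.134 and 0.238). Sfmbt2, a Polycomb-related gene, lay between 9.55 and 19.7 TPM and was called in no comparison.

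**Figure D3:**
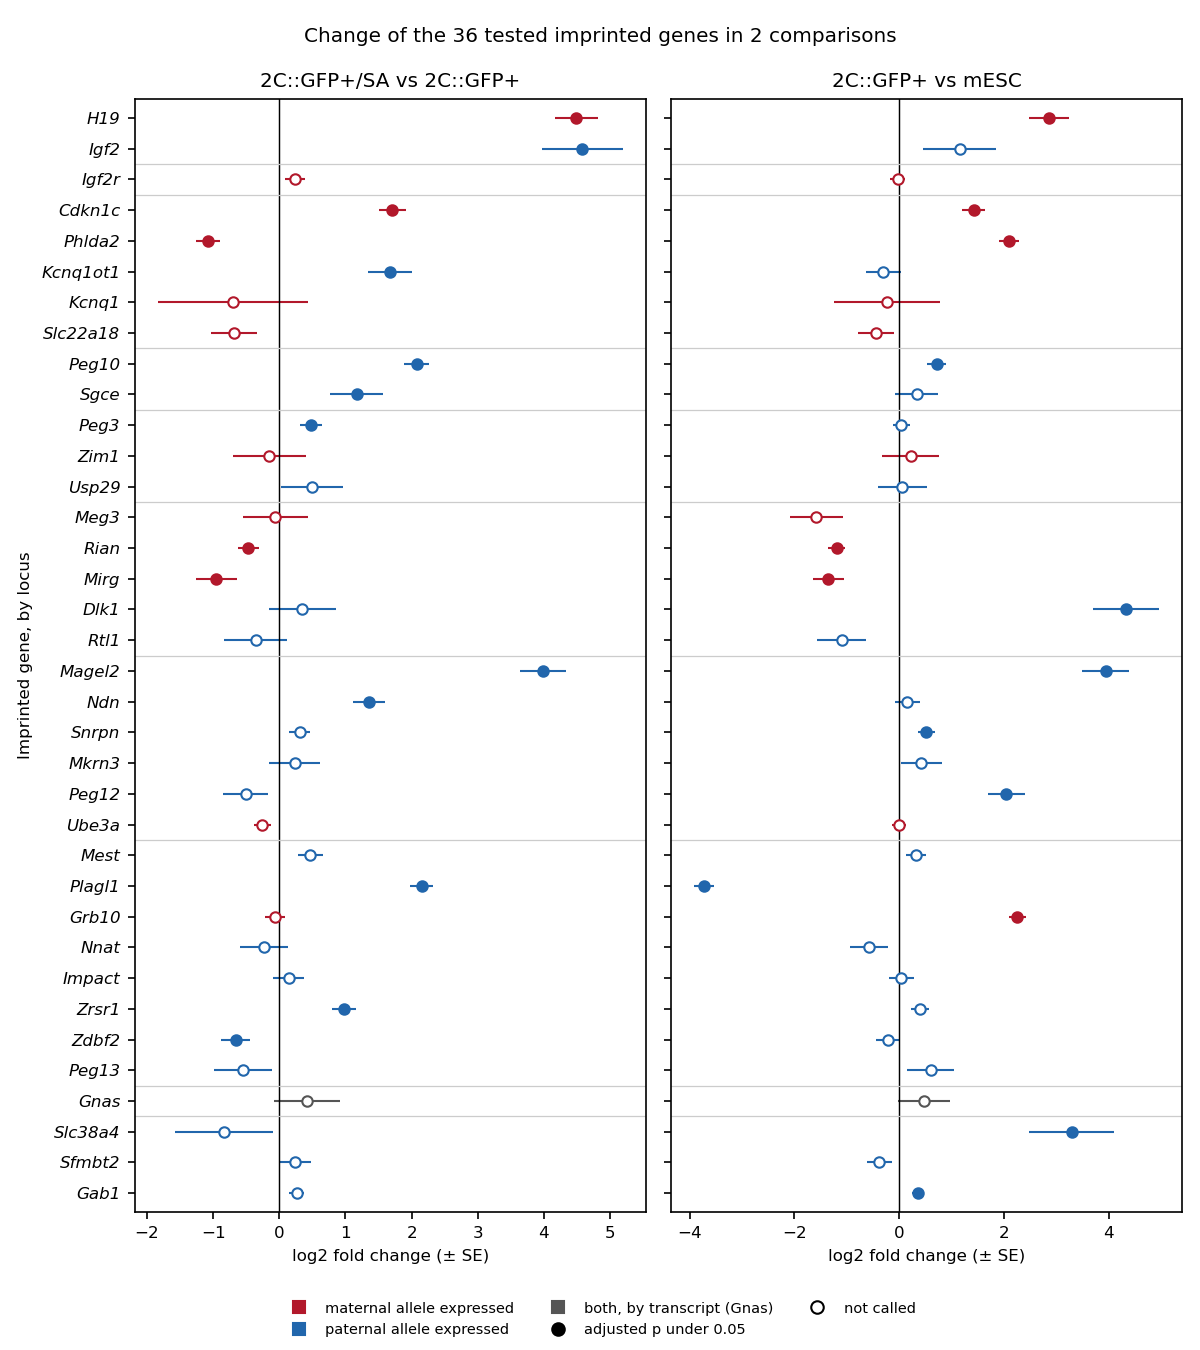
Log2 fold change with its SE of the 36 tested imprinted genes, grouped by locus, in 2C::GFP+/SA against 2C::GFP+ (left) and 2C::GFP+ against mESC (right). Filled points passed the adjusted p of 0.05, red marks maternally and blue paternally expressed genes, and the 2 panels share the 2C::GFP+ libraries, which enter them with opposite sign. Plagl1 lies at 2.15 on the left and -3.72 on the right, and Phlda2 at -1.08 and 2.10.

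Counted by expressed allele, 2C::GFP+/SA against 2C::GFP+ gave 9 higher and 1 lower of the 23 tested paternal genes, and 2 higher and 3 lower of the 12 tested maternal genes. Over all genes tested, 14.9% were called higher and 13.8% lower, the share to set beside these counts and those by cluster. The median log2 change was 0.35 over the paternal and -0.20 over the maternal genes, 0.24 over all 36 and 0.01 over all genes tested. The 2 maternal genes that rose were H19 and Cdkn1c, and the paternal gene that fell was Zdbf2. No test was made of a difference between the 2 kinds of gene, since genes of one cluster are not independent. The allele of a gene is the one known from mouse, and was not measured in these cells. For some genes, such as Ube3a, it holds only in certain cell types. By cluster, both genes of H19-Igf2 and both of Peg10-Sgce rose, 2 of 6 rose in Snrpn-Ube3a, and 2 of 5 fell in Dlk1-Meg3. In the Kcnq1 cluster 2 of 5 rose and 1 fell, and in the Peg3 cluster 1 of 3 rose. The 1 gene tested in the Igf2r cluster was not called. Calls for 9 of the 15 genes held in every alternative processing, namely H19, Igf2, Cdkn1c, Phlda2, Peg10, Magel2, Ndn, Plagl1 and Zrsr1.

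In 2C::GFP+/SA against 2C::GFP+/SGC, 8 of the 36 genes were higher (H19, Igf2, Cdkn1c, Peg10, Magel2, Plagl1, Zrsr1 and Gab1) and 1 was lower (Phlda2). Over all genes, 16.1% were called, 7.92% higher and 8.18% lower. By allele, 6 of 23 paternal genes were higher and 0 lower, with a median log2 change of 0.38, and 2 of 12 maternal genes were higher and 1 lower, with a median of -0.35. The median over all 36 was -0.01, and -0.02 over all genes. Without 2C::GFP+/SGC replicate 2, the 3 maternal RNAs of the Dlk1-Meg3 cluster were also called lower, with log2 changes of -1.05 for Meg3, -0.66 for Rian and -1.12 for Mirg (adjusted p = 0.0198, 0.0148 and 0.0241, against 0.561, 0.103 and 0.0954 with all libraries). Without 2C::GFP+/SA replicate 2, Kcnq1ot1 was called higher and Zdbf2 lower (adjusted p = 0.0377 and 0.00395, against 0.163 and 0.401).

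Between 2C::GFP+/SGC and 2C::GFP+ no gene was called, which is 0% of the 20608 tested, and 0 of the 36 imprinted genes. With unadjusted p-values, 2037 genes were under 0.05, among them 8 imprinted ones. DESeq2 called 271 genes, among them Magel2 and H19, both higher in 2C::GFP+/SGC. The median log2 change was 0.07 over the imprinted genes and 0.03 over all genes.

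In 2C::GFP+ against mESC, 11 of the 36 genes were higher and 3 lower, against 24.3% of all genes called, 15.2% higher and 9.12% lower. The higher ones were H19, Cdkn1c, Phlda2, Peg10, Dlk1, Magel2, Snrpn, Peg12, Grb10, Slc38a4 and Gab1, and the lower ones Plagl1, Rian and Mirg. By allele, 7 of 23 paternal genes were higher and 1 lower (median log2 change 0.34), and 4 of 12 maternal genes were higher and 2 lower (median -0.02). The median over all 36 was 0.27, and 0.04 over all genes. Calls for 9 of the 14 held in every alternative processing, without Peg10, Mirg, Snrpn, Slc38a4 and Gab1.

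In 2C::GFP+/SA against mESC, 17 of the 36 genes were higher and 7 lower, against 45.1% of all genes called, 25% higher and 20.1% lower. By allele, 13 of 23 paternal genes were higher and 3 lower (median log2 change 0.80), and 4 of 12 maternal genes were higher and 4 lower (median -0.09). The largest changes were those of Magel2 (7.94 ± 0.46, adjusted p = 2.9e-08, 13.67 without mESC replicate 1, where the fit depends on the prior count), H19 (7.35 ± 0.39, adjusted p = 1.35e-08) and Igf2 (5.73 ± 0.66, adjusted p = 1.12e-05). The median over all 36 was 0.64, and 0.03 over all genes. The comparisons share libraries, so their values are given side by side and not as independent evidence.

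**Figure D4:**
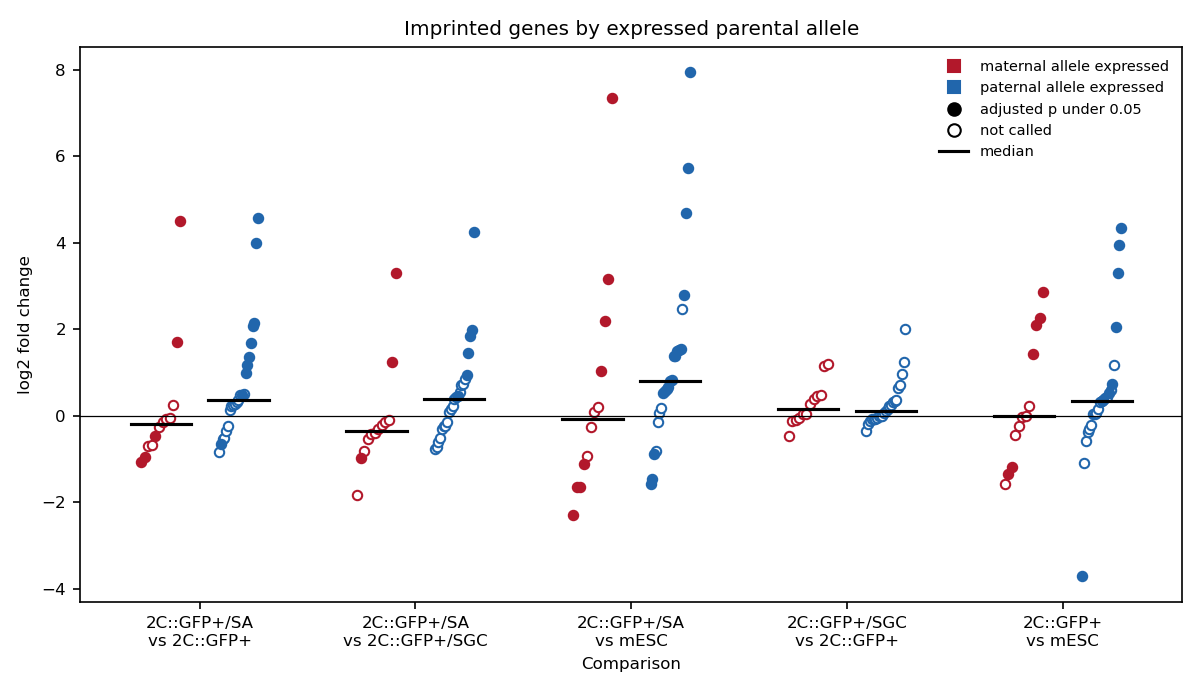
Log2 fold change of each tested imprinted gene in 5 comparisons, with 12 maternally expressed genes in red on the left and 23 paternally expressed genes in blue on the right of each pair. Filled points passed the adjusted p of 0.05 and bars are medians, which for 2C::GFP+/SA against 2C::GFP+ are -0.20 for maternal and 0.35 for paternal genes. No point is filled for 2C::GFP+/SGC against 2C::GFP+.

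Over the 4 groups, H19, Cdkn1c, Magel2 and Ndn had non-overlapping levels that descended from 2C::GFP+/SA over 2C::GFP+/SGC and 2C::GFP+ to mESC. These are 4 of the 36 tested genes, and the same order without overlap was found for 5.09% of all genes tested. The opposite order was found for 0 of the 36 and for 1.7% of all genes. H19 and Cdkn1c are maternally and Magel2 and Ndn paternally expressed, and the 4 genes lie in 3 clusters of chromosome 7. Of the 38 genes, 30 had a RefSeq promoter (48 windows), with a median of 12.5 CpG sites per window against 7 over all windows, and H19, Cdkn1c, Kcnq1, Peg10, Sgce, Rtl1, Impact and Peg13 had none.

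A second list of 54 imprinted genes, of which 47 were tested, moved in both directions. In 2C::GFP+/SA against 2C::GFP+, 9 were higher and 7 lower, beside 14.9% higher and 13.8% lower of all genes. Those with the smallest adjusted p were Cobl, Xist and Dio3. Cobl, an actin nucleator gene near Grb10, had 36.1 and 56.3 TPM in 2C::GFP+/SA, against 101 and 108 in 2C::GFP+ (log2 change -1.15 ± 0.13, adjusted p = 4.77e-05). Xist, the RNA that silences an X chromosome, had 2.82 and 4.98 TPM in 2C::GFP+/SA, against 0.430 and 0.661 in 2C::GFP+ (2.89 ± 0.40, adjusted p = 0.000218). Dio3, a paternally expressed thyroid hormone deiodinase gene at the far end of the Dlk1-Meg3 cluster, had 5.14 and 6.56 TPM in 2C::GFP+/SA, against 1.05 and 1.33 in 2C::GFP+ (2.36 ± 0.42, adjusted p = 0.000994). In mESC, Dio3 had 5.60 and 8.76 TPM and so stood above 2C::GFP+ there, opposite to Dlk1 of the same cluster (log2 change of 2C::GFP+ over mESC -2.60 ± 0.42, adjusted p = 0.000502). In 2C::GFP+/SA against 2C::GFP+/SGC, 6 of the list were higher and 7 lower (7.92% and 8.18% of all genes), and in 2C::GFP+/SGC against 2C::GFP+ 0 were called (0%). For 2C::GFP+ against mESC the counts were 10 higher and 3 lower (15.2% and 9.12%), and for 2C::GFP+/SA against mESC 19 and 7 (25% and 20.1%).

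The genes of that list with the smallest adjusted p in the other comparisons were Cobl, Cd81, Xist, Ago2, Gatm, Zfp264 and Ano1, beside Dio3. Cobl was lower in 2C::GFP+/SA than in 2C::GFP+/SGC (log2 change -0.86 ± 0.13, adjusted p = 0.000837) and in mESC (-1.02 ± 0.13, adjusted p = 3.47e-05). Cd81, a tetraspanin gene of the Kcnq1 domain, had 248 and 332 TPM in 2C::GFP+/SA, against 212 and 195 TPM in 2C::GFP+/SGC (0.66 ± 0.13, adjusted p = 0.00338, and 0.0504 with limma on log2(TPM + 1)). Xist was higher in 2C::GFP+/SA than in 2C::GFP+/SGC by 1.96 ± 0.38 (adjusted p = 0.00425, and 0.0625 with limma on log2(TPM + 0.1)). Against mESC, Ago2, an Argonaute gene, was lower in 2C::GFP+/SA, with 31.2 and 53.8 TPM, against 140 and 153 TPM in mESC (-1.77 ± 0.17, adjusted p = 4.16e-06). Gatm, a gene of creatine synthesis, was higher in 2C::GFP+/SA, with 5.05 and 11.5 TPM, against 0.432 and 0.593 TPM in mESC (4.05 ± 0.50, adjusted p = 2.33e-05). In untreated 2C::GFP+, the zinc finger gene Zfp264 had 8.34 and 13 TPM, against 2.56 and 2.20 TPM in mESC (2.10 ± 0.30, adjusted p = 0.000195). The chloride channel gene Ano1 had 1.62 and 1.40 TPM in 2C::GFP+, against 0.245 and 0.285 TPM in mESC (2.54 ± 0.44, adjusted p = 0.000907). None of these pairs of groups overlapped.

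Of 21 genes that set, keep or erase imprints, all of them tested, 6 were higher and 1 lower in 2C::GFP+ than in mESC, beside 15.2% higher and 9.12% lower of all genes. Dnmt3a, a methyltransferase that places new DNA methylation, had 63.3 and 54.6 TPM in 2C::GFP+, against 9.15 and 13.9 in mESC (log2 change 2.38 ± 0.19, adjusted p = 4.04e-06). Dnmt3l, its cofactor in germ cells, had 443 and 365 TPM in 2C::GFP+, against 132 and 109 in mESC (1.74 ± 0.17, adjusted p = 9.8e-06). Tet2, an enzyme that oxidises methylated DNA, had 35.2 and 41.6 TPM in 2C::GFP+, against 19.2 and 18.8 in mESC (1.00 ± 0.17, adjusted p = 0.00101). In none of these 3 genes did the 2 groups overlap.

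In 2C::GFP+/SA against 2C::GFP+, 0 of these 21 genes were higher and 5 lower, beside 14.9% and 13.8% of all genes. Ehmt2, a histone H3 lysine 9 methyltransferase gene, had 83.4 and 94.9 TPM in 2C::GFP+/SA, against 170 and 157 in 2C::GFP+ (log2 change -0.83 ± 0.14, adjusted p = 0.000942). Eed, a Polycomb gene, had 115 and 134 TPM in 2C::GFP+/SA, against 197 and 189 in 2C::GFP+ (-0.59 ± 0.12, adjusted p = 0.00329, and 0.0524 without 2C::GFP+ replicate 1). Uhrf1, which brings the maintenance methyltransferase to DNA, had 430 and 439 TPM in 2C::GFP+/SA, against 698 and 677 in 2C::GFP+ (-0.60 ± 0.15, adjusted p = 0.00798, and 0.0919 without 2C::GFP+ replicate 1). In none of these 3 genes did the 2 groups overlap. Zfp57 and Trim28, which keep imprints, were called in none of the comparisons. For the regulators, 1 was higher and 0 lower in 2C::GFP+/SA against 2C::GFP+/SGC (7.92% and 8.18% of all genes), 0 were called in 2C::GFP+/SGC against 2C::GFP+ (0%), and 3 were higher and 3 lower in 2C::GFP+/SA against mESC (25% and 20.1%). The one higher than in 2C::GFP+/SGC was Dnmt3l, with 334 and 469 TPM in 2C::GFP+/SA, against 263 and 300 TPM in 2C::GFP+/SGC (log2 change 0.66 ± 0.17, adjusted p = 0.0173, and 0.125 without 2C::GFP+/SGC replicate 1). Against mESC, Dnmt3a and Dnmt3l were higher in 2C::GFP+/SA (2.18 ± 0.19 and 1.76 ± 0.17, adjusted p = 2.8e-06 and 3.34e-06), and Uhrf1 was lower (-0.55 ± 0.15, adjusted p = 0.00788, and 0.122 without mESC replicate 1). DNA methylation was not measured in these libraries.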

How the data were processed

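Gene counts and TPM values of 8 libraries were used as deposited. Per the submitters' processing notes, the authors named the builds mm10 and GRCm38 and the tools STAR 2.7.4a, featureCounts 2.0.0, FastQC 0.11.9 and Trim Galore 0.6.5. Cell Ranger is named as well, without a version or role. Not given in the sources used here were the strand setting, the annotation release and the treatment of reads on shared bases. The deposited count table holds whole reads per gene, and the authors' TPM table follows from those counts with 1 length per gene. Of 55573 genes, 19516 had no count, and 55480 identifiers were found in the GENCODE M21 annotation of GRCm38, which gave names and coordinates, and 93 were not.

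Groups came from the labels, with 1 group matched to its columns by elimination. The counts were fitted in R 4.3.3 with edgeR 4.0.16 (TMM factors, filterByExpr, robust quasi-likelihood fit of all 8 libraries, 4 residual degrees of freedom). The common biological coefficient of variation was 20.6%. A gene was called at a Benjamini-Hochberg adjusted p under 0.05 over 20608 genes. SEs are the log2 change divided by the square root of F. Alternatives were RLE factors, DESeq2 1.42.0, no low-count filter, limma 3.58.1 on log2(TPM + 1) and log2(TPM + 0.1), replicate number as a block, only the 4 libraries compared, each library left out, and, chosen after seeing the data, both 2C::GFP+/SA libraries left out. The scripts were tested on simulated data.

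The 38 genes and the other lists were chosen with earlier results of these data known. All 38 are accounted for. Values per library are given for genes called in any comparison with a group mean of at least 1 TPM and for their partners of the opposite allele in a cluster, and ranges for the rest. From the 2 further lists, up to 3 genes per comparison were named by smallest adjusted p. Promoters and miRNAs came from RefSeq tables of GRCm38.p6. Levels of replicate 2 rest on fewer reads than those of replicate 1. Floors cover counting error only.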

Additional observations from a re-analysis of the deposited data

How the results depend on the processing

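All calls kept their direction in every alternative. Calls held in every alternative for 9 of 15 imprinted genes in 2C::GFP+/SA against 2C::GFP+, 7 of 9 against 2C::GFP+/SGC, 17 of 24 against mESC, and 9 of 14 in 2C::GFP+ against mESC. Between 2C::GFP+/SGC and 2C::GFP+ (0 genes called) DESeq2 gave 271 genes and 2 imprinted ones, no filter 499 and 3, limma on log2(TPM + 0.1) 1 gene, only the 4 libraries 326 and 1, and the fit without both 2C::GFP+/SA libraries 79 genes. The replicate block gave 284 genes and 3 imprinted ones there. The log2 CPM differences between replicate 1 and replicate 2 of a group correlated between groups by 0.0411 to 0.142, over the 6 pairs of groups. The replicate numbers were therefore not taken to pair the libraries. With limma on TPM, 9 imprinted genes were called in 2C::GFP+/SA against 2C::GFP+ on either scale (15 with edgeR), and on log2(TPM + 1) 2924 genes in 2C::GFP+ against mESC (5016 with edgeR). With only the 4 libraries, 2210 genes were called in 2C::GFP+/SA against 2C::GFP+/SGC (3319 with all). With 1 library left out, genes and imprinted genes called ranged from 2890 to 5861 and 11 to 17 in 2C::GFP+/SA against 2C::GFP+, 1207 to 3324 and 7 to 12 against 2C::GFP+/SGC, 6630 to 9648 and 20 to 25 against mESC, 0 to 431 and 0 to 3 in 2C::GFP+/SGC against 2C::GFP+, and 2872 to 5869 and 9 to 13 in 2C::GFP+ against mESC. Falls past 1.5 times came without 2C::GFP+ replicate 1 (2890 genes in 2C::GFP+/SA against 2C::GFP+, 3177 in 2C::GFP+ against mESC), 2C::GFP+ replicate 2 (3268 genes and 9 imprinted ones in 2C::GFP+ against mESC), mESC replicate 1 (2872), and, against 2C::GFP+/SGC, 2C::GFP+/SA replicate 1 (2185), 2C::GFP+/SGC replicate 1 (1207) and replicate 2 (2081). The cause was not tested. RLE factors gave 3451 higher and 2298 lower genes in 2C::GFP+/SA against 2C::GFP+ (3072 and 2838 with TMM). Limma on TPM shifted the median of all genes in 2C::GFP+/SA against 2C::GFP+/SGC by -0.11 and -0.15 (log2). The smaller replicate 2 libraries limit genes of few counts, such as Igf2, Dlk1 and Magel2 in mESC.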
